A study of Mus musculus with 8 samples.

Results

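Fgf2, Fgf7, Fgf10, Fgfr1, Fgfr2, Fgfr3, Hgf, Spry1, Spry2 and Spry4, 10 of the 31053 genes counted, encode secreted growth factors of the FGF and HGF type, FGF receptors and the Sprouty inhibitors that act below them. They were taken by name as 1 signalling group, with earlier results of these data known, and 8 of the 10 had enough counts to be tested among 10181 genes, while Spry1 and Spry4 did not. Fibro/adipogenic progenitors (FAPs), the mesenchymal cells of the muscle interstitium that can become fibroblasts or adipocytes, were compared here in 2 cell states. SCA1-High-FAPs (n = 4) and SCA1-Low-FAPs (n = 4) came from hind limb muscles of C57BL/10ScSn-Dmdmdx/J mice 45 days old, which carry the mdx mutation in the dystrophin gene and whose muscle goes through repeated damage and repair. CD45- CD31- cells were enriched on magnetic columns, Integrin alpha-7- SCA-1+ cells were sorted from them, and the sort split these by the intensity of the SCA-1 antigen on the surface. Both cell states were then kept for 5 days in growth medium (GM), so that the mRNA measured is that of expanded cultures and not of freshly sorted cells. No group from wild type mice or without culture entered the comparison.

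FGFs are secreted proteins that bind FGF receptors together with heparan sulphate chains on the cell surface, and the receptors, which are tyrosine kinases, switch on the Ras-ERK cascade. FGF2 is a broad mitogen of mesenchymal and muscle progenitor cells, whereas FGF7 and FGF10 are made by mesenchyme and bind chiefly the IIIb splice form of FGFR2, which is typical of epithelia. HGF is a separate ligand that acts on the MET receptor and is known in muscle for activating satellite cells. Sprouty proteins are induced by the same cascade and dampen it, so that their mRNA is commonly read as a record of receptor signalling.

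Depth ranged from 1880561 to 3985656 counts per sample. The floor was taken as 3 counts, which corresponded to 0.753 to 1.60 CPM on the library totals before TMM scaling. All other CPM values, the share of a library's counts on the per-million scale, use the TMM-scaled library size. Because 3′ libraries give about 1 tag per transcript whatever its length, CPM of different genes can be set side by side on this scale. Alignments to several places took 37.5 to 39.7% of the tallied alignments in SCA1-High-FAPs and 40.8 to 43.3% in SCA1-Low-FAPs, without overlap, and the part of this in the results was not tested. Ly6a, the gene of SCA-1, ran against the names of the sort after culture. Its level was 489, 784, 640 and 914 CPM in SCA1-High-FAPs and 1094, 1074, 1150 and 1009 CPM in SCA1-Low-FAPs. The difference on the log2 scale was 0.61 ± 0.17 (SE) in favour of SCA1-Low-FAPs (adjusted p = 0.0341, edgeR). That call held in 6 of 14 alternatives, with adjusted p from 0.00293 to 0.0947, and was lost when any replicate other than SCA1-High-FAPs replicate 4 was left out. All 8 FAP markers were detected. Of the 7 myogenic markers, Pax7, Myf5, Myod1, Myog and Myh3 had no count, while Itga7, the gene of the antigen the sort selected against, had 11, 0, 7 and 0 counts in SCA1-High-FAPs and 0, 18, 4 and 4 in SCA1-Low-FAPs, and Des had at most 5. The endothelial, leucocyte and Schwann cell lists reached at most 16, 21 and 12 counts for any gene in a sample.

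Among these 10 genes, the one that passed the test between the cell states was Fgf10, which was higher in each of the SCA1-High-FAPs samples than in any of the SCA1-Low-FAPs samples. Of the 8 tested members, 1 passed the threshold (adjusted p under 0.05 and an absolute log2 fold change over 0.5, edgeR), beside 7.68% of all 10181 genes. By direction, 1 member was higher in SCA1-High-FAPs, where 4.36% of all genes were, and 0 were higher in SCA1-Low-FAPs, where 3.32% were. Fgf2, Fgf10, Hgf and Fgfr2 had an unadjusted p under 0.05, as did 21.3% of all genes tested. DESeq2 called 2 members, beside 8.53% of the genes it tested. Log2 fold changes take SCA1-High-FAPs as the base, and a negative value means a higher level in SCA1-High-FAPs. Over the 8 members their median was -0.52, with 5 below 0, against 0.0003 over all genes tested. CPM of the groups did not overlap for 3 members, Fgf10, Hgf and Fgfr2, beside 14.1% of all genes tested. In bulk samples such as these, a higher share of cells that express a gene and more of its mRNA per cell cannot be told apart.

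**Figure D1:**
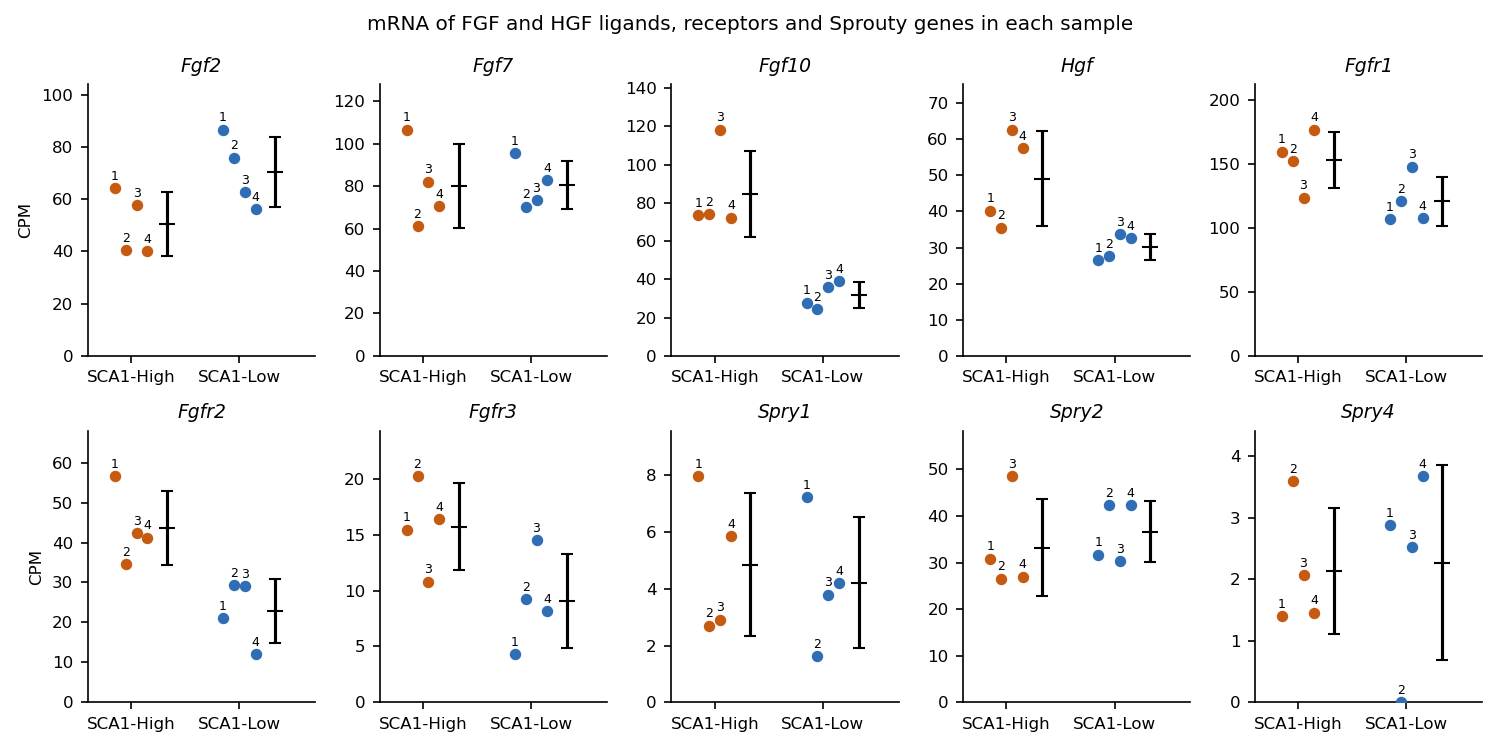
CPM of the 10 members in each sample, with the replicate number above each point and the mean ± SD of the 4 samples as a bar beside each cell state; each axis starts at 0. Fgf10 in SCA1-High-FAPs (72.2 to 118.2 CPM) lies wholly above SCA1-Low-FAPs (24.4 to 39.1 CPM), while the Fgf7 samples of both cell states overlap.

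Fgf10 (ENSMUSG00000021732, GRCm38 chromosome 13, 118669791 to 118792115, plus strand) encodes a mesenchymal FGF needed for budding of the lung and limb, and it has been linked to the differentiation of fat precursors. In SCA1-High-FAPs it was measured at 73.4, 74.1, 118.2 and 72.2 CPM (157, 165, 285 and 198 counts), and in SCA1-Low-FAPs at 27.9, 24.4, 35.9 and 39.1 CPM (58, 45, 114 and 149 counts). Replicates 1, 2 and 4 of SCA1-High-FAPs were nearly level and replicate 3 stood above them, and the lowest of the 4 was still well above the highest of SCA1-Low-FAPs. The means were 84.5 ± 22.5 and 31.8 ± 6.87 CPM (SD, n = 4 each), and the fitted level was 2.63-fold higher in SCA1-High-FAPs. On the log2 scale the difference was -1.39 ± 0.23 (SE, 95% interval -1.88 to -0.91, adjusted p = 0.00144, edgeR). The call held in all 14 alternatives. Without SCA1-High-FAPs replicate 3, the highest sample, the log2 fold change was -1.19 with an adjusted p of 0.00459.

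Fgf7 (chromosome 2, 126034658 to 126091185, plus strand), the keratinocyte growth factor, is the closest relative of FGF10 among the members and shares its receptor form. Its level was 106.6, 61.1, 82.1 and 70.7 CPM in SCA1-High-FAPs and 95.7, 70.4, 73.5 and 82.7 CPM in SCA1-Low-FAPs. The samples of both cell states were fully interleaved, with means of 80.1 ± 19.6 and 80.6 ± 11.3 CPM. The log2 fold change was 0.01 with a 95% interval of -0.41 to 0.42 (adjusted p = 0.988, edgeR), so that differences within that interval could not be seen with these samples. Its sign turned in 5 of the 14 alternatives, all with values near 0.

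The promoters of these 2 ligands are shown because the genes encode near relatives and differed in their mRNA. Each is the 250 bases before the RefSeq start on GRCm38.p6, 5′ to 3′ on the coding strand, at chr13:118714449-118714698 for Fgf10 and chr2:126034408-126034657 for Fgf7. The Fgf7 window ends right before the annotated gene, which begins at 126034658. The Fgf10 window lies inside the annotated gene, which begins upstream of it at 118669791. Counts from the 3′ end do not tell which start gave the mRNA. Capitals mark a GC box (GGGCGG, found on the opposite strand as CCGCCC) 199 bases before the start in Fgf10 and a CCAAT box (CCAAT) 53 bases before it in Fgf7.
Fgf10: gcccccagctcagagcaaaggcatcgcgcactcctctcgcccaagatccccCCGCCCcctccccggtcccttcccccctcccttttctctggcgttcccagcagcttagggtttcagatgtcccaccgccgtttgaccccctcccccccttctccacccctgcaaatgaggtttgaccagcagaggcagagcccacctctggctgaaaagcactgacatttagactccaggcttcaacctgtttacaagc
Fgf7: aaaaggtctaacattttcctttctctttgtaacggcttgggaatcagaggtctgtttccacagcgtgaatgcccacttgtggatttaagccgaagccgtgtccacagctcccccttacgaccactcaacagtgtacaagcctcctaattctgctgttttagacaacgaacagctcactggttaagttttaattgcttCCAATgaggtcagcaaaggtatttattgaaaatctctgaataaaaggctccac
The Fgf10 window held 61.2% G and C with 8 CpG sites and the Fgf7 window 43.6% with 6, against a median of 52.4% and 6 sites over 32817 promoter windows. The same search on both strands for a TATA box (TATAAA), an AP-1 site (TGANTCA), a CRE (TGACGTCA) and an E-box (CACGTG) found none in either window. Of all promoter windows, 32.7% held a GC box, 33.8% a CCAAT box, 12.4% a TATA box, 6.75% an AP-1 site, 1.55% a CRE and 6.02% an E-box. These are matches of letters and not sites shown to be bound.

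Fgf2 (chromosome 3, 37348346 to 37410108, plus strand), basic FGF, had the largest log2 fold change above 0 among the members, without passing the threshold. It was measured at 64.1, 40.4, 57.6 and 40.1 CPM in SCA1-High-FAPs and at 86.5, 75.8, 62.8 and 56.2 CPM in SCA1-Low-FAPs. Replicates 1 and 3 of SCA1-High-FAPs reached the range of SCA1-Low-FAPs, so that the groups overlapped. On the log2 scale the difference was 0.47 ± 0.22 (SE, 95% interval 0.01 to 0.93), with an adjusted p of 0.221 in edgeR, and it did not pass the threshold in any of 14 alternatives. Fgf2 shares 640 exonic bases with Nudt6 on the opposite strand, 55 of them in its last 1000 exonic bases, and the strand setting of the counting is not given. Nudt6 itself had 89 counts over all samples beside 1209 for Fgf2.

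Hgf (chromosome 5, 16553495 to 16620152, plus strand), the MET ligand, was measured at 40.2, 35.5, 62.6 and 57.6 CPM in SCA1-High-FAPs and at 26.4, 27.6, 33.7 and 32.6 CPM in SCA1-Low-FAPs. The groups did not overlap, but only a narrow gap separated replicate 2 of SCA1-High-FAPs from replicate 3 of SCA1-Low-FAPs. The log2 fold change was -0.70 ± 0.24 (SE, 95% interval -1.21 to -0.19), with an adjusted p of 0.0866 in edgeR. It did not pass under any of the 14 alternatives, whose adjusted p ranged from 0.0606 to 0.230.

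Among the receptors, all 3 had a lower mean in SCA1-Low-FAPs and none passed the threshold. Fgfr1 (chromosome 8, 25513654 to 25575718, plus strand), the main FGF receptor of mesenchymal cells, had the highest level of all members. It was measured at 159.4, 151.9, 123.6 and 176.4 CPM in SCA1-High-FAPs and at 106.7, 120.8, 147.6 and 107.7 CPM in SCA1-Low-FAPs. Replicate 3 of each cell state lay in the range of the other cell state, and the log2 fold change was -0.34 (95% interval -0.69 to 0.01, adjusted p = 0.247, edgeR).

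Fgfr2 (chromosome 7, 130162451 to 133123350, minus strand) encodes the receptor of FGF7 and FGF10 in its IIIb form and of other FGFs in its IIIc form, which gene counts do not tell apart. Its level was 56.6, 34.6, 42.3 and 41.2 CPM in SCA1-High-FAPs and 21.2, 29.2, 29.0 and 12.1 CPM in SCA1-Low-FAPs. Every SCA1-High-FAPs sample lay above every SCA1-Low-FAPs sample, with replicate 4 of SCA1-Low-FAPs lowest. On the log2 scale the difference was -0.95 ± 0.29 (SE, 95% interval -1.56 to -0.33), with an adjusted p of 0.0542 in edgeR, just short of the threshold. It passed with DESeq2 (adjusted p = 0.0379, where 8.53% of genes passed), with no filter beyond 1 count in edgeR (0.0226, 6.63% of genes) and when each sample had to hold at least 10 counts (0.0433, 8.77% of genes). Without SCA1-Low-FAPs replicate 3 it passed as well (-1.11, adjusted p = 0.0356, edgeR, 9.85% of genes). Leaving out any of the other 7 samples gave adjusted p values of 0.0586 to 0.163 in edgeR. The annotated gene shares 314 exonic bases with Ctbp2 on the same strand, 0 of them in its last 1000 exonic bases.

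Fgfr3 (chromosome 5, 33721674 to 33737068, plus strand), best known as a brake on cartilage growth, was low. It was measured at 15.4, 20.2, 10.8 and 16.4 CPM in SCA1-High-FAPs and at 4.33, 9.21, 14.5 and 8.14 CPM in SCA1-Low-FAPs, where replicate 3 lay within the range of SCA1-High-FAPs. The log2 fold change was -0.78 (95% interval -1.63 to 0.08, adjusted p = 0.289, edgeR), an interval that leaves both a large decrease and no change within its bounds.

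Of the Sprouty genes, only Spry2 (chromosome 14, 105891947 to 105896819, minus strand) was tested. Its level was 30.9, 26.5, 48.5 and 27.0 CPM in SCA1-High-FAPs and 31.7, 42.2, 30.3 and 42.3 CPM in SCA1-Low-FAPs, and the 2 cell states were interleaved. On the log2 scale the difference was 0.14 (95% interval -0.40 to 0.68, adjusted p = 0.824, edgeR). Spry1 (chromosome 3, 37639947 to 37644598, plus strand) had 17, 6, 7 and 16 counts in SCA1-High-FAPs and 15, 3, 12 and 16 in SCA1-Low-FAPs. Spry4 had 3, 8, 5 and 4 counts in SCA1-High-FAPs and 6, 0, 8 and 14 in SCA1-Low-FAPs. The 0 in replicate 2 allows a level of up to 1.60 CPM on the library total before TMM scaling. For neither gene was a difference detectable at this depth, and with DESeq2, which tested both, the adjusted p was 0.926 for Spry1 and 0.966 for Spry4.

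**Figure D2:**
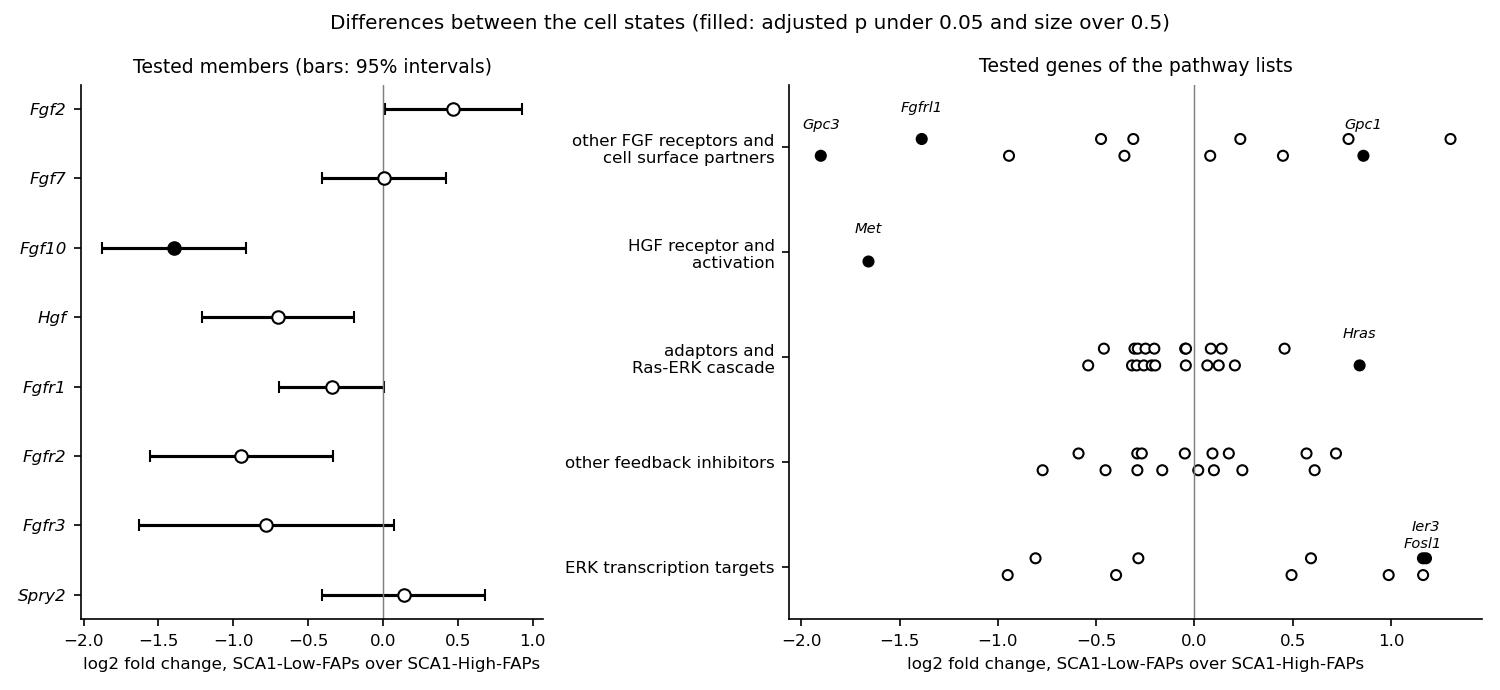
Log2 fold changes (SCA1-Low-FAPs relative to SCA1-High-FAPs) for the 8 tested members with 95% intervals (left) and for the tested genes of the pathway lists (right, 1 point per gene); filled points passed the threshold. Fgf10 at -1.39 is the only filled member, and 7 of the 60 pathway genes are filled.

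Set in order of mean CPM over all 8 samples, the members ran from Fgfr1 (136.8 CPM) through Fgf7 (80.4), Fgf2 (60.4), Fgf10 (58.2), Hgf (39.5), Spry2 (34.9), Fgfr2 (33.3) and Fgfr3 (12.4) to Spry1 (4.53) and Spry4 (2.20). Of these neighbours, only Fgfr1 and Fgf7 had ranges over the samples that did not overlap. The place of Fgf10 depended on the cell state. It stood at rank 2 in SCA1-High-FAPs, above Fgf7 in 3 of 4 samples and with overlapping ranges, and at rank 5 in SCA1-Low-FAPs, below Fgf7 and Fgf2 and with a range that overlapped those of Spry2 and Hgf.

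The same shift was seen within each sample, where the total count has no part. The ratio of Fgf10 to Fgf7 counts was 0.689, 1.21, 1.44 and 1.02 in SCA1-High-FAPs and 0.291, 0.346, 0.489 and 0.473 in SCA1-Low-FAPs, so that the groups did not overlap. Of the counts on Fgf2, Fgf7 and Fgf10 together, Fgf10 took 30.1 to 45.8% in SCA1-High-FAPs and 13.27 to 21.98% in SCA1-Low-FAPs. Fgf2 took 21.9 to 26.2% and 31.6 to 44.4%, again without overlap, whereas the share of Fgf7 overlapped (31.8 to 43.7% and 41.3 to 46.5%). The summed level of the 3 ligands, 175.7 to 257.9 CPM in SCA1-High-FAPs and 170.6 to 210.1 CPM in SCA1-Low-FAPs, overlapped. Of the counts on the 3 receptors, Fgfr1 took 68.9 to 75.4% in SCA1-High-FAPs and 75.8 to 84.2% in SCA1-Low-FAPs, and the shares of Fgfr2 and of Fgfr3 overlapped. A share also moves when another gene of the same sum does, and the CPM of Fgf2 and of Fgfr1 themselves overlapped between the cell states. These shares describe the same counts as the tests above and add no separate test.

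**Figure D3:**
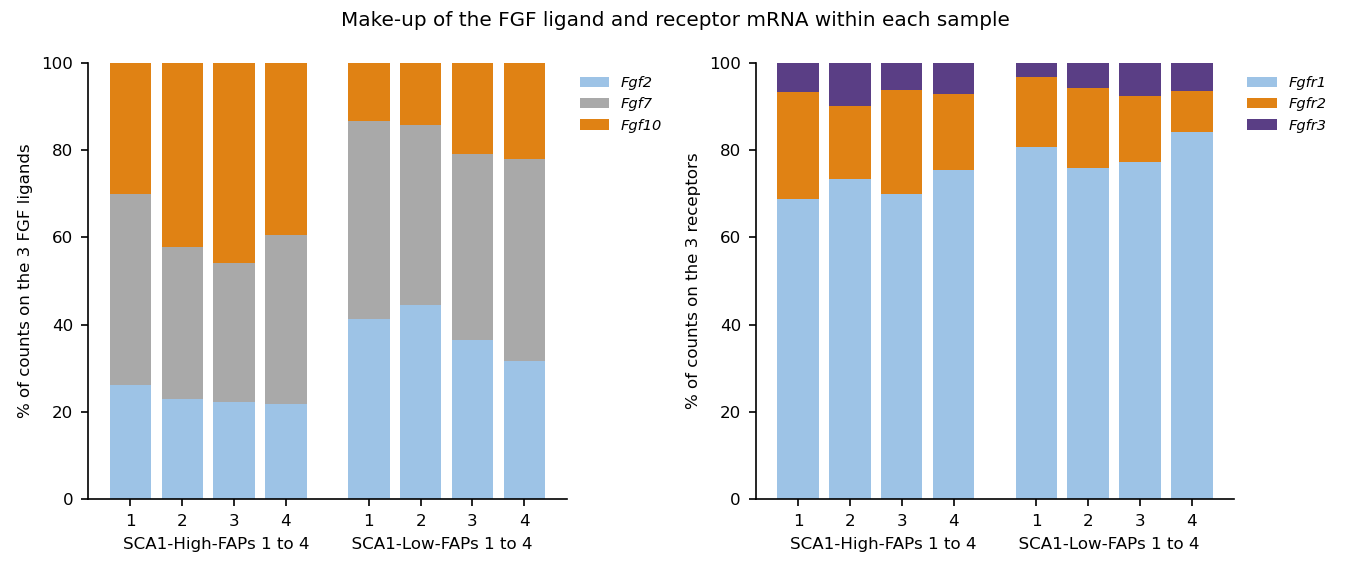
Percentage of the counts on 3 FGF ligands (left) and on 3 FGF receptors (right) taken by each gene, 1 bar per sample. Fgf10 takes 30.1 to 45.8% of the ligand counts in SCA1-High-FAPs and 13.27 to 21.98% in SCA1-Low-FAPs, and Fgfr1 is the largest receptor share in all 8 samples.

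The other genes of the pathway were read from lists of 96 genes, of which 60 were tested. Of these, 7 passed the threshold, beside 7.68% of all genes tested. By direction, 3 passed as higher in SCA1-High-FAPs, beside 4.36% of all genes, and 4 as higher in SCA1-Low-FAPs, beside 3.32%. The median log2 fold change of the 60 genes was -0.05, with 33 below 0 and 27 above. Of the 19 other genes of the FGF family, 10 had no count in any sample and none was tested. The 19 include genes of intracellular proteins that are not secreted ligands, such as Fgf13. Fgf1 had 1 count over all 8 samples. Fgf18 had 7, 6, 1 and 6 counts in SCA1-High-FAPs and 31, 0, 5 and 22 in SCA1-Low-FAPs, so that only replicates 1 and 4 of SCA1-Low-FAPs stood out. The mRNA of the FGF family seen in these cultures was thus nearly all that of Fgf2, Fgf7 and Fgf10. The other 19 genes, ligands or not, summed to 7.66 to 9.89 CPM in SCA1-High-FAPs and 5.68 to 14.9 CPM in SCA1-Low-FAPs.

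Of the 17 other receptors and surface partners, 12 were tested and 3 passed, beside 7.68% of all genes tested. Fgfrl1, an FGF receptor that lacks the kinase part, was measured at 165.5, 132.1, 139.7 and 105.7 CPM in SCA1-High-FAPs and at 44.2, 46.6, 78.5 and 37.6 CPM in SCA1-Low-FAPs. Every SCA1-High-FAPs sample was above every SCA1-Low-FAPs sample, with a log2 fold change of -1.39 ± 0.22 (SE, adjusted p = 0.00132, edgeR). The ratio of Fgfrl1 to Fgfr1 counts was 0.599 to 1.13 in SCA1-High-FAPs and 0.349 to 0.532 in SCA1-Low-FAPs. The 2 glypicans that passed, heparan sulphate proteoglycans of the cell surface, moved apart. Gpc3 was at 58.9, 22.02, 39.8 and 25.9 CPM in SCA1-High-FAPs against 10.6, 8.67, 13.9 and 6.04 CPM in SCA1-Low-FAPs (log2 fold change -1.90 ± 0.36, SE, adjusted p = 0.00336, edgeR). Gpc1 was at 60.8, 72.8, 82.5 and 81.3 CPM against 145.7, 156.5, 107.8 and 131.8 CPM (0.86 ± 0.17, SE, adjusted p = 0.00535, edgeR). Fgfr4, the remaining kinase receptor, had no count in any sample. All 3 calls held in each of 14 alternatives.

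On the HGF side, Met was the only tested gene of 8, the others being activators, inhibitors and relatives of HGF with few counts. Met, the HGF receptor, was measured at 27.1, 12.1, 15.8 and 8.75 CPM in SCA1-High-FAPs and at 4.81, 3.25, 6.62 and 4.99 CPM in SCA1-Low-FAPs. The groups did not overlap, replicate 1 of SCA1-High-FAPs was the highest, and counts were few, at 6 to 58 per sample. The log2 fold change was -1.66 ± 0.46 (SE, adjusted p = 0.0324, edgeR). This call held in 6 of 13 alternatives. It was lost without SCA1-High-FAPs replicate 1 (-1.28, adjusted p = 0.163, edgeR), without SCA1-High-FAPs replicate 3 (0.0602) and without SCA1-Low-FAPs replicate 1 (0.0821), 2 (0.0755) or 4 (0.0886). The Met call was also lost with a replicate block in the fit (adjusted p = 0.071 in edgeR and 0.0641 in DESeq2).

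Of 21 tested adaptor and Ras-ERK genes, which act below the receptors, 1 passed, Hras, beside 7.68% of all genes tested. Log2 fold changes were below 0 for 14 of the 21 and above 0 for 7. Hras, a small GTPase, was at 49.1, 38.2, 36.5 and 37.2 CPM in SCA1-High-FAPs and at 83.6, 65.5, 48.9 and 90.1 CPM in SCA1-Low-FAPs. Replicate 3 of SCA1-Low-FAPs fell level with replicate 1 of SCA1-High-FAPs, so that the groups touched. On the log2 scale the difference was 0.84 ± 0.22 (SE, adjusted p = 0.0270, edgeR). It was lost without SCA1-High-FAPs replicate 2 (adjusted p = 0.0604, edgeR), 3 (0.0610) or 4 (0.0637) and without SCA1-Low-FAPs replicate 1 (0.0954) or 4 (0.125).

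Of 16 tested feedback inhibitors other than the Sprouty genes, 0 passed in edgeR, beside 7.68% of all genes tested. With DESeq2 0 passed too, beside 8.53% of the genes it tested. Cblb, a ubiquitin ligase that removes activated receptors, was the 1 gene at an unadjusted p under 0.05, with a log2 fold change of -0.59, and it passed only without SCA1-Low-FAPs replicate 3 (adjusted p = 0.0258, edgeR). Dusp6, the phosphatase that removes ERK phosphorylation and is induced by it, was at 22.9, 22.5, 7.88 and 11.7 CPM in SCA1-High-FAPs and 32.2, 19.5, 22.4 and 24.7 CPM in SCA1-Low-FAPs. These overlapped, with a log2 fold change of 0.61 (95% interval -0.11 to 1.34, adjusted p = 0.332, edgeR). Spred1, a relative of the Sprouty genes, had a log2 fold change of -0.16 (95% interval -0.59 to 0.26, adjusted p = 0.713, edgeR), which turned to 0.05 without SCA1-High-FAPs replicate 1.

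Of 10 tested ERK transcription targets, 2 passed, Ier3 and Fosl1, each higher in SCA1-Low-FAPs, beside 7.68% of all genes tested. The log2 fold changes of all 10 were split into 4 below 0 and 6 above. Ier3, an immediate early gene, was at 123.0, 148.3, 111.5 and 115.6 CPM in SCA1-High-FAPs and at 315.8, 235.6, 200.9 and 375.3 CPM in SCA1-Low-FAPs. The groups were well apart (log2 fold change 1.18 ± 0.19, SE, adjusted p = 0.00129, edgeR), and the call held in all 14 alternatives. Fosl1, an AP-1 subunit, was at 20.6, 18.0, 11.6 and 40.1 CPM in SCA1-High-FAPs and at 54.3, 59.0, 48.6 and 42.5 CPM in SCA1-Low-FAPs. Replicate 4 of SCA1-High-FAPs came close to SCA1-Low-FAPs, with a log2 fold change of 1.16 ± 0.31 (SE, adjusted p = 0.0278, edgeR). The Fosl1 call was lost without SCA1-High-FAPs replicate 1 (adjusted p = 0.0714, edgeR), 2 (0.0762) or 3 (0.0630) and without SCA1-Low-FAPs replicate 1 (0.0805) or 2 (0.0757). Etv4 and Etv5, the ETS factors that commonly report FGF signalling, had log2 fold changes of 0.99 (95% interval -0.74 to 2.71, adjusted p = 0.540, edgeR) and 0.59 (95% interval -0.38 to 1.57, adjusted p = 0.512, edgeR). Etv4 ran from 0.49 without SCA1-Low-FAPs replicate 4 to 1.69 without SCA1-High-FAPs replicate 2, and Etv5 from 0.27 without SCA1-Low-FAPs replicate 1 to 0.94 without SCA1-High-FAPs replicate 3. With a replicate block in the fit, Egr1, higher in SCA1-High-FAPs, and Ccnd1, higher in SCA1-Low-FAPs, also passed (adjusted p = 0.0309 and 0.0107, edgeR). Without the block neither passed (adjusted p = 0.446 and 0.319, edgeR).

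**Figure D4:**
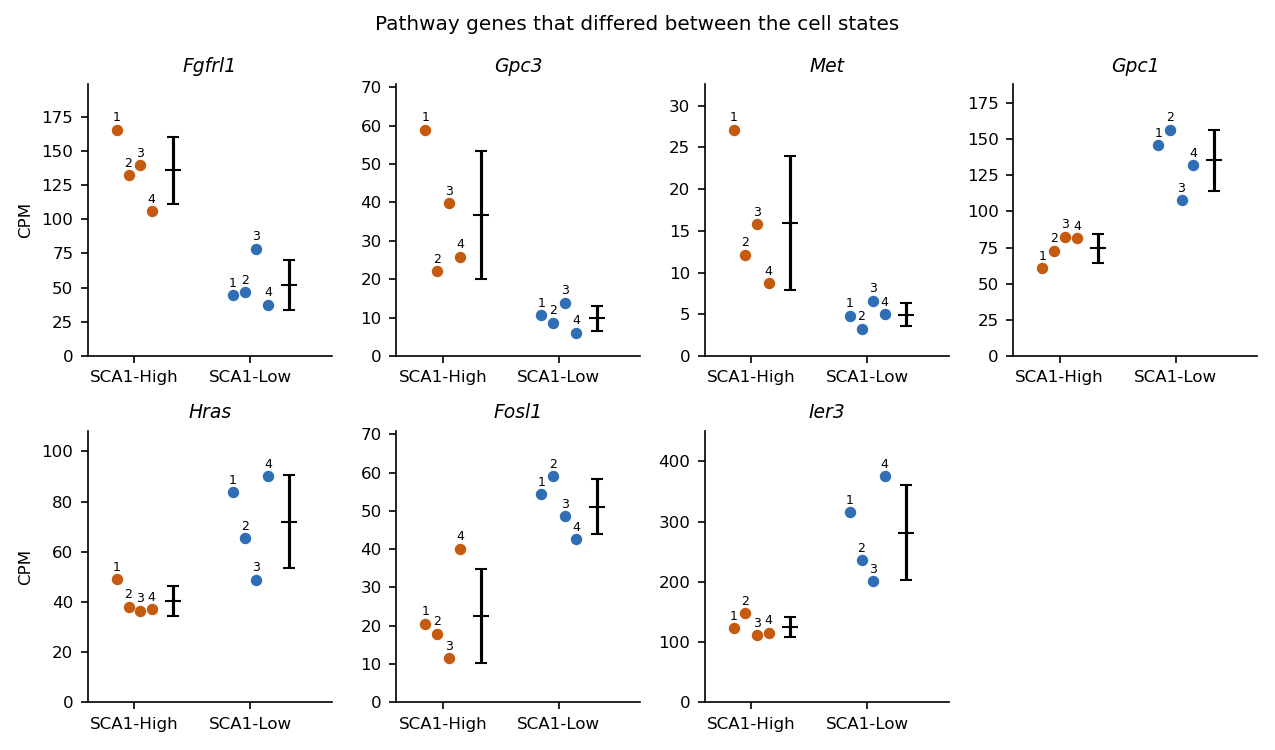
CPM of the 7 pathway genes that passed the threshold, in each sample, with the replicate number above each point and mean ± SD of 4 samples as a bar; each axis starts at 0. Fgfrl1, Gpc3 and Met are higher in SCA1-High-FAPs and Gpc1, Hras, Fosl1 and Ier3 in SCA1-Low-FAPs, with Hras the only gene whose groups touch.

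Other gene groups moved with the cell state at the same time, and their part in the values above was not tested. All 10 genes of cycling cells had a log2 fold change above 0. Of these, 8 passed the threshold as higher in SCA1-Low-FAPs, beside 3.32% of all genes tested. The summed level of the 10 genes was 563 to 774 CPM in SCA1-High-FAPs and 1051 to 1635 CPM in SCA1-Low-FAPs. All 4 tested adipocyte markers had higher CPM in SCA1-High-FAPs without overlap, beside 14.1% of all genes tested without overlap in either direction. Adipoq and Retn passed the threshold as higher in SCA1-High-FAPs, beside 4.36% of all genes tested. Plin1 (adjusted p = 0.0751, edgeR) and Fabp4 (adjusted p = 0.101, edgeR) did not pass. Cidec had 30, 4, 28 and 10 counts in SCA1-High-FAPs and 1, 0, 3 and 0 in SCA1-Low-FAPs, too few for the main edgeR test. It passed with DESeq2 (adjusted p = 0.00156) and with no filter beyond 1 count (adjusted p = 0.00112, edgeR). The summed level of the 6 markers of that list was 927 to 4354 CPM in SCA1-High-FAPs and 106 to 578 CPM in SCA1-Low-FAPs, with Lep at 0. Of the 8 tested FAP markers, 4 passed, beside 7.68% of all genes tested. Ly6a and Thy1 passed as higher in SCA1-Low-FAPs, and the matrix genes Dcn and Col3a1 in the other direction. All 3 tested mural cell markers passed, beside 7.68% of all genes tested, Notch3 as higher in SCA1-High-FAPs and Cspg4 and Myh11 in SCA1-Low-FAPs. The summed level of the 5 markers of that list, 23.7 to 44.4 and 27.1 to 66.6 CPM, overlapped. The tenocyte markers did not move together. Scx had 0 counts in all SCA1-High-FAPs samples and 17, 3, 7 and 3 in SCA1-Low-FAPs, too few for the edgeR test with its filter, and passed with DESeq2 (adjusted p = 0.0108). Tnmd had 36, 102, 36 and 49 counts in SCA1-High-FAPs and 6, 22, 39 and 21 in SCA1-Low-FAPs, with a log2 fold change of -1.55 (adjusted p = 0.0530, edgeR). Mkx had at most 14 counts in a sample.

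The genes whose pattern over the 8 samples was most like that of Fgf10 among 10180 others were Calcoco1, Zeb2 and Jarid2. Pearson's r of their log2 CPM with that of Fgf10 was 0.9925, 0.9803 and 0.9773, given as a description, since the samples fall into 2 groups that alone give a high value. The choice by likeness to Fgf10 fixes a difference between the groups for these genes, so their log2 fold changes are given as a description too. Calcoco1, a receptor of selective autophagy, was at 128.6, 112.8, 244.7 and 99.9 CPM in SCA1-High-FAPs and at 31.7, 21.1, 47.0 and 49.6 CPM in SCA1-Low-FAPs (log2 fold change -1.95 ± 0.32, SE). Zeb2, a zinc finger repressor, was at 414 to 663 CPM in SCA1-High-FAPs and 211 to 263 CPM in SCA1-Low-FAPs (-1.05 ± 0.17, SE). Jarid2, a partner of the Polycomb complex, was at 82.7 to 138.5 and 43.3 to 62.8 CPM (-1.09 ± 0.20, SE). In SCA1-High-FAPs all 3 were highest in replicate 3, as Fgf10 was, which the choice by likeness over the same samples favours too.

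**Figure D5:**
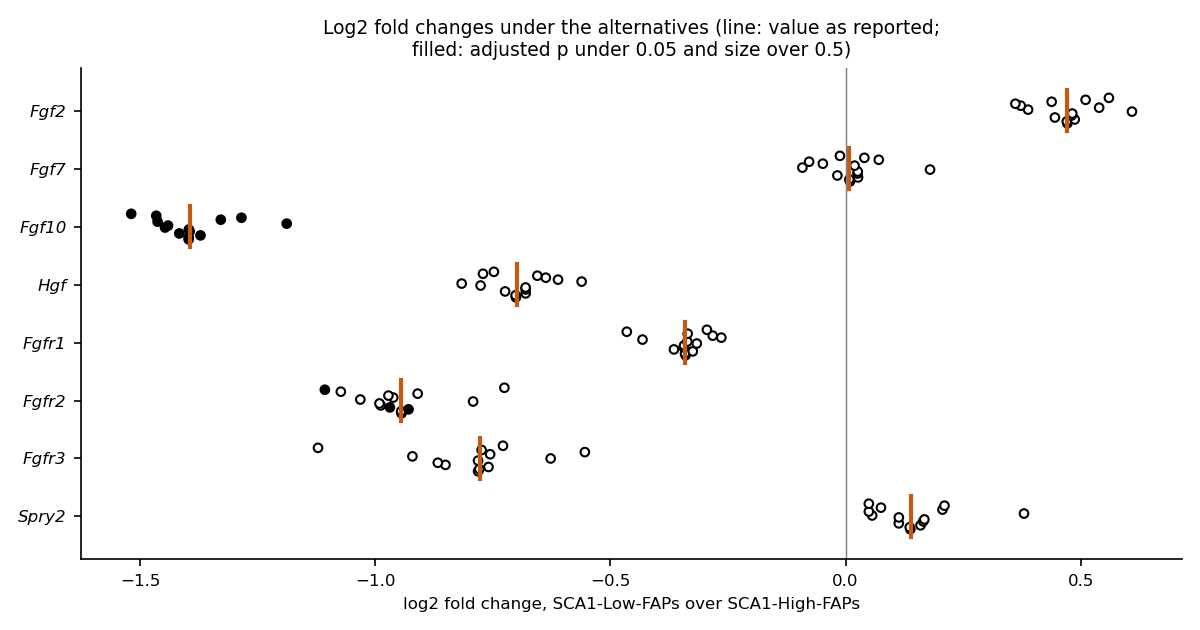
Log2 fold changes of the 8 tested members under the alternatives (1 point each; 14 per gene, 13 for Fgfr3), with the reported value as a vertical line; filled points passed the threshold. Fgf10 stays between -1.52 and -1.19 with all points filled, Fgfr2 has 4 filled points, and Fgf7 lies on both sides of 0.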

How the data were processed

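FAP cultures were sequenced with a 3′ mRNA kit that reads forward from the poly(A) end. Per the labels and the study's methods, the authors trimmed the reads, aligned them with STAR to mm10 with an Ensembl release 93 annotation, and tallied them per gene with HTSeq, whose strand setting is not given in the sources used here. The deposited values are raw counts of reads per gene, 1 table per sample, without normalization. Special lines (no feature, ambiguous, not unique) were left out of totals and tests. No-feature alignments were 9.35 to 10.2% of those tallied in SCA1-High-FAPs and 7.87 to 8.83% in SCA1-Low-FAPs, without overlap. The part of this in the results was not tested. Ambiguous alignments were 0.378 to 0.464%. Coordinates are GENCODE M21 on GRCm38, to which 31011 of 31053 gene identifiers matched.

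Counts were tested with edgeR 4.0.16 (TMM, filterByExpr with a minimum of 10, robust quasi-likelihood fit, R 4.3.3) on all 8 samples with cell state as the only term, and p-values were adjusted by Benjamini-Hochberg over 10181 genes. A call needed an adjusted p under 0.05 and an absolute log2 fold change over 0.5. DESeq2 1.42.0 served as an alternative, with other size factors, other filters, a replicate block and each sample left out. The scripts were tested on simulated counts first. The label text gives 4 mice as the source of both cell states, and n = 4 is the number of samples per state. The main fit treats the 8 samples as independent, so its p-values leave any sharing of mice between the cell states out of account. No samples held identical values. Floors (3 counts) cover counting error only.

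The text names all 10 members, every called gene of a pathway list with at most 4 calls, and Met, Fgfr4, Fgf1, Fgf18, Dusp6, Etv4, Etv5 and Spred1 whatever their values. It also names the 3 genes most correlated with the called member of largest change, by log2 CPM with a prior count of 2. Members and lists were chosen with earlier results of these data known. Ly6a, the other cell type genes, Cblb, Egr1, Ccnd1 and Fos stand outside that rule. Promoter windows are from RefSeq on GRCm38.p6.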

Additional observations from a re-analysis of the deposited data

Results flagged for a closer look

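Of 51 groups of 4 samples looked at, 3 held a sample past the critical value of Dixon's test, and chance alone gives about 1 in 20. Fgf10 stood at 118.2 CPM in SCA1-High-FAPs replicate 3 against 72.2 to 74.1 CPM in the other 3 samples, and its call held without that sample. Hras stood at 49.1 CPM in SCA1-High-FAPs replicate 1 against 36.5 to 38.2 CPM. Fgf1 stood at 0.263 CPM in SCA1-Low-FAPs replicate 4, which is 1 count, against 0 in the other 3 samples. Any single count among zeros passes this test, and 1 count is under the floor of 3 counts, so it is not read as a difference.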

How the results depend on the processing

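The Fgf10 call held in all 14 alternatives, and no alternative made Fgf2, Fgf7, Hgf, Fgfr1, Fgfr3 or Spry2 pass (13 alternatives for Fgfr3, which the strictest filter removed). The count of members called was 2 in place of 1, Fgfr2 being added, with DESeq2, with no filter beyond 1 count and with at least 10 counts in every sample. Leaving out each sample gave 1 to 2 members, the 2 without SCA1-Low-FAPs replicate 3. All genes called numbered 782, and leaving out each sample gave 410 to 1017, with 417 without SCA1-Low-FAPs replicate 1 and 410 without its replicate 4. Pathway genes called numbered 7, and leaving out each sample gave 4 to 9, with 4 without SCA1-High-FAPs replicate 3 and 4 without SCA1-Low-FAPs replicate 1. The cause was not tested. Fgf7, at a log2 fold change of 0.01, ranged from -0.092 to 0.18 over the samples left out and turned to -0.017 with at least 10 counts in every sample, -0.092 and -0.048 without SCA1-High-FAPs replicate 2 and 4, and -0.078 and -0.012 without SCA1-Low-FAPs replicate 1 and 4. Spred1, at -0.16, ranged from -0.24 to 0.047 and turned to 0.047 without SCA1-High-FAPs replicate 1. The labels do not say that equal replicate numbers share a mouse. Over all tested genes, deviations of same-numbered samples from their group means correlated at -0.0165, 0.0067, -0.0137 and -0.0502, with 0 of 8 samples correlating best with their own number. Single genes can depart from these values. Fos, chosen after its values were seen, was at 164, 227, 38.6 and 10.9 CPM in SCA1-High-FAPs in replicate order. In SCA1-Low-FAPs it was at 71.1, 127, 21.4 and 13.9 CPM, the same order of levels. With a replicate block for the number, 697 genes were called in edgeR and 838 in DESeq2, and 1 member, Fgf10, in both. In that fit Met did not pass (adjusted p of 0.071 in edgeR and 0.0641 in DESeq2), and 2 more ERK targets passed, Egr1, higher in SCA1-High-FAPs (0.0309 and 0.0124), and Ccnd1, higher in SCA1-Low-FAPs (0.0107 and 0.000241). Depth limits Spry1 and Spry4 most, at 0 to 17 counts per sample.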

Other observations

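Klb and Fgf13, chosen after their values were seen, were not tested by edgeR because of low counts. Klb, the co-receptor through which endocrine FGFs act on fat and liver cells, had 10, 7, 17 and 3 counts in SCA1-High-FAPs and 0, 0, 0 and 3 in SCA1-Low-FAPs. It passed with DESeq2 (adjusted p = 0.0332) and did not with edgeR and no filter beyond 1 count (adjusted p = 0.0564). Fgf13, an intracellular member of the FGF family that is not secreted, had 10, 6, 7 and 10 counts in SCA1-High-FAPs and 0, 0, 5 and 1 in SCA1-Low-FAPs, with adjusted p of 0.114 in DESeq2 and 0.214 in edgeR without the filter.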
